A study of Mus musculus with 375 samples.

Results

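Transcripts of 42 genes of the interferon pathway were followed in single cells of the mouse small intestine, out of 23420 genes in the expression table. The genes were taken by name, 9 for receptor chains, Janus kinases and STAT factors, 6 for interferon regulatory factors (IRFs), 2 for SOCS feedback inhibitors, 14 for targets of interferon gamma and 11 for targets of type I interferons. All 42 had a row in the table. The first 17 are called receptor and signal genes below.

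The cells were sorted by flow cytometry as Lgr5-positive, the mark of crypt base stem cells, and each was sequenced by Smart-seq2, a plate method that copies full-length mRNA from single cells. Mice fed a high-fat diet (HFD) gave the sets HFD 1 (93 cells) and HFD 2 (94 cells), and mice fed a control diet gave the sets control 1 (94 cells) and control 2 (94 cells). The sources used here do not give strain, genotype, sex, age, the length of feeding or the composition of the diets, nor how many mice each set holds or whether the sets are separate mice. By its title, the study is about loss of MHC class II in epithelial cells of the gut under the diet.

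Interferon gamma binds a receptor of the chains Ifngr1 and Ifngr2, whose kinases Jak1 and Jak2 switch on STAT dimers that bind the gamma-activated site (GAS) in target promoters. Type I interferons bind Ifnar1 and Ifnar2, and the kinases Tyk2 and Jak1 then switch on a complex of STATs with Irf9 that binds the interferon-stimulated response element (ISRE). In gut epithelium, interferon gamma is known to induce Ciita, the co-activator of the MHC class II genes, which is why the targets are set beside class II transcripts here.

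Levels are TPM, transcript abundances per gene length scaled to 1 total in every cell, and since they hold no read counts the sequencing depth is unknown. Cells with at least 2000 genes above 0 TPM were kept, 91 and 92 in HFD 1 and HFD 2 and 93 and 91 in control 1 and control 2 (367 of 375). Medians of 6857 and 6348.5 genes were above 0 in HFD 1 and HFD 2, and 6895 and 6130 in control 1 and control 2. Rn45s, the ribosomal RNA precursor, took 26.9% and 18.6% of TPM in HFD 1 and HFD 2, against 39.1% and 24.6% in control 1 and control 2. All 10 crypt stem cell markers examined were present in every set, Lgr5 in 87 and 87 cells of HFD 1 and HFD 2 and in 89 and 85 cells of control 1 and control 2. Of 14 leukocyte genes, 2 were listed at 0 in every cell and 10 more were in under 10 cells, among them Ptprc in 1 HFD 2 cell. The other 2 were Cd8a, in 102 cells in all, and Itgam, in 9 and 14 cells of HFD 1 and HFD 2 and in 18 and 14 cells of control 1 and control 2. The summed level of the leukocyte genes was 3.13 and 4.80 TPM in HFD 1 and HFD 2 and 4.35 and 3.49 TPM in control 1 and control 2. Of cells with 3 or more Paneth cell markers at a level of at least 10 TPM there were 23 and 20 in HFD 1 and HFD 2, against 7 and 4 in control 1 and control 2, and their part in the results was not tested beyond the values without them given below.

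The promoters of 5 genes that the results turn on are shown for the elements through which the pathway is known to act. Each is the stretch of 200 bases before the transcription start in RefSeq (build GRCm38.p6), 5′ to 3′ on the gene's strand. Capitals mark matches to GAS, searched as TTCNNNGAA, or to ISRE, searched as GAAA, any 2 bases and GAAA, on both strands. Matches of the 2 motifs may overlap each other, as they do in Bst2.
Tgtp2 (chr11:49064213-49064412, minus strand): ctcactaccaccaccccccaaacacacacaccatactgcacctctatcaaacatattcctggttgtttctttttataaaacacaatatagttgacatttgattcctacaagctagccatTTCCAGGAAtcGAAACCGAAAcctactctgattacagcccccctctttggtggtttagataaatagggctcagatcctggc
Igtp (chr11:58199356-58199555, plus strand): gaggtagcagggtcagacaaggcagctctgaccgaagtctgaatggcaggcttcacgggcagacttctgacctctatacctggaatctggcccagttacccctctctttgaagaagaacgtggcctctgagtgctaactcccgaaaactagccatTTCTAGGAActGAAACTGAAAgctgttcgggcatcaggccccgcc
Irgm1 (chr11:48871421-48871620, minus strand): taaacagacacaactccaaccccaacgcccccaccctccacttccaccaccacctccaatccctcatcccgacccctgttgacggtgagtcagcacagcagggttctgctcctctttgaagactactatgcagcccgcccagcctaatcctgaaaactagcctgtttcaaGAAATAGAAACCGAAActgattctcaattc
Irf1 (chr11:53769814-53770013, plus strand, the first of 2 starts): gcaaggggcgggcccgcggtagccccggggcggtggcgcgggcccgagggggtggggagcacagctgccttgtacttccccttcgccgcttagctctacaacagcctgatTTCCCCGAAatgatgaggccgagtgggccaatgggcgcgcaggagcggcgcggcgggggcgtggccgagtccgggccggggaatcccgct
Bst2 (chr8:71537473-71537672, minus strand): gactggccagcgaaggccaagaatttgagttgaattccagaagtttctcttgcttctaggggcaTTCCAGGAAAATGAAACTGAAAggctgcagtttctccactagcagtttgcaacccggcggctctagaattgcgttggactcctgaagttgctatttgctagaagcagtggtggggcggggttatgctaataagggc

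In Tgtp2 a GAS match began 81 bases before the start and an ISRE match 70 bases before it. In Igtp the same order recurred, GAS at 45 bases and ISRE at 34 bases before the start. Irgm1 had a pair of overlapping ISRE matches at 30 and 24 bases and no GAS match, and Irf1 had a GAS match at 90 bases. Bst2 had GAS at 136 bases and ISRE at 130 and 124 bases. Windows from 250 bases before to 50 bases after the start were given for 35 of the 42 genes, and 24 of them held a match to either motif. The 5 genes shown all had a match, whereas Stat3, described below, had none. Among the class II genes and Ciita, 4 had such windows, and 0 of them held a match. A GAS match was found in 5 of 10 gamma targets, 3 of 8 type I targets and 6 of 17 receptor and signal genes, and in 9.55% of the 27025 genes that had such windows. An ISRE match was found in 9 of 10 gamma targets, 5 of 8 type I targets and 3 of 17 receptor and signal genes, and in 3.99% of the 27025 genes. A match describes letters and is not a site of binding.

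Transcripts of the receptor and signal genes were in most cells, whereas most target transcripts were in few. Presence in a cell means a level of at least 1 TPM. By that measure 11 of the 15 receptor, kinase, STAT and IRF genes were in at least 50% of the 367 cells, against 1 of 14 gamma targets (Irgm1) and 1 of 11 type I targets (Ifi35). Under 10% of cells held 10 gamma targets, 6 type I targets and both SOCS genes. The median gene was in 58.3% of cells for the receptor and signal genes, 3.13% for the gamma targets and 9.54% for the type I targets. Over all 23420 genes the median was 6.27%, so presence in few cells is near that background and not particular to the targets. The chemokine Cxcl10 and the antiviral gene Ifit1 were listed at 0 in every cell, and 0 of 367 cells allows a share of up to 0.817%. That limit, like the intervals below, covers counting error only, and neither covers transcripts missed in capture. The limit is 3 cells of 367, another rule than the two-sided intervals.

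**Figure D1:**
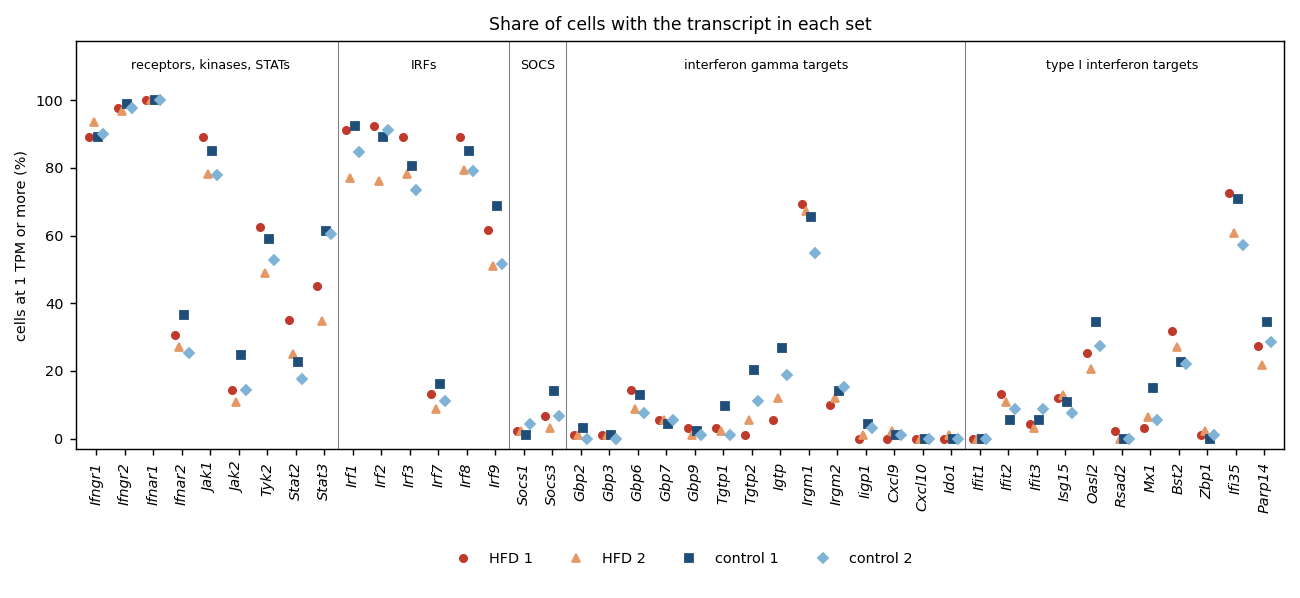
Share of cells (%) in which each of the 42 genes was at 1 TPM or more, 1 point per set (HFD 1, HFD 2, control 1, control 2), grouped by role. Receptor chains and most IRFs sit high in every set, while 10 of the 14 gamma targets and 6 of the 11 type I targets were in under 10% of all cells.

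The diets were compared over sets with limma on log2(mean TPM + 1), for genes that averaged at least 1 TPM over the 4 sets. Of the 42 genes 27 passed that filter, and 0 were called at an adjusted p under 0.05, where 59 of all 11667 genes tested were called (0.506%), 43 higher and 16 lower in HFD. With 27 genes a count of 0 is near that background. At an unadjusted limma p under 0.05 there were 4 of the 27 (Tgtp2, Igtp, Stat3 and Bst2), against 1294 of all 11667 genes tested. A count of 4 is near that background as well. No difference given below for an interferon pathway gene passed this test.

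The receptor for interferon gamma was present in nearly every cell on both diets. Ifngr1, the ligand-binding chain, averaged 127 and 161 TPM in HFD 1 and HFD 2, against 98.6 and 129 TPM in control 1 and control 2. It was in 89.0% and 93.5% of cells of the HFD sets and in 89.2% and 90.1% of cells of the control sets. HFD 1 lay below control 2, so the diets overlapped, and the log2 fold change of HFD over control was 0.34 (SE 0.25, limma adjusted p = 0.648). Ifngr2, the signalling chain, averaged 84.9 and 111 TPM in HFD 1 and HFD 2, against 84.2 and 100.05 TPM in control 1 and control 2, which overlapped as well (log2 0.08, SE 0.25). Both chains together were in 87.9% and 90.2% of HFD cells and in 89.2% and 87.9% of control cells.

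Ifnar1, the signalling chain of the type I receptor, was in every one of the 367 cells, the lowest at 2.17 TPM and the highest at 660.47 TPM. It averaged 26.3 and 45.2 TPM in HFD 1 and HFD 2, against 37.7 and 27.4 TPM in control 1 and control 2 (log2 0.10, SE 0.29). The diets overlapped, and 1 cell gave 15.9% of the summed TPM of HFD 2. Of 1597 genes with means of 25 to 45 TPM, 3 were in every cell, Ifnar1 with Acad9 and Prrc2c, and the median gene of that range was in 70.03% of cells. Ifnar2, the ligand-binding partner chain, was in 30.8% and 27.2% of cells of HFD 1 and HFD 2 and in 36.6% and 25.3% of cells of control 1 and control 2. Its mean was 9.80 and 28.5 TPM in HFD 1 and HFD 2, against 14.1 and 12.6 TPM in control 1 and control 2 (log2 0.31, SE 0.36), and the HFD sets lay on either side of both control sets.

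Among the kinases, Jak1, shared by both receptors, was the most abundant. Jak1 averaged 32.3 and 27.9 TPM in HFD 1 and HFD 2, against 29.8 and 23.8 TPM in control 1 and control 2, and the diets overlapped (log2 0.17, SE 0.27). Tyk2, the kinase of Ifnar1, averaged 12.7 and 8.81 TPM in HFD 1 and HFD 2, against 13.1 and 12.9 TPM in control 1 and control 2 (log2 −0.27, SE 0.32). Jak2, the kinase bound to Ifngr2, was low in every set. Its levels were 1.21 and 1.93 TPM in HFD 1 and HFD 2, against 2.44 and 2.36 TPM in control 1 and control 2, and it was in 14.3% and 10.9% of HFD cells against 24.7% and 14.3% of control cells (log2 −0.42, SE 0.47, limma adjusted p = 0.792). Neither kinase passed the test, although both HFD sets lay below both control sets for each.

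Stat3, the main STAT of interleukin-6 family and interleukin-22 signals, was found in fewer HFD cells. It averaged 11.5 and 9.19 TPM in HFD 1 and HFD 2, against 18.1 and 19.9 TPM in control 1 and control 2. The share of cells with it was 45.1% (95% Clopper-Pearson interval 34.6 to 55.8%) in HFD 1 and 34.8% (25.1 to 45.4%) in HFD 2, against 61.3% (50.6 to 71.2%) in control 1 and 60.4% (49.6 to 70.5%) in control 2. The diets did not overlap on either measure. The difference in share was −20.9 percentage points, and the spread between sets of the same diet (SD pooled over both diets) was 5.15 points. The log2 fold change was −0.83 (SE 0.30, unadjusted limma p = 0.0121), which failed the adjustment (adjusted p = 0.311). Without the cells with Paneth markers it was −0.87. Its annotated exons overlap in part with those of Stat5a on the other strand, and in this non-stranded method reads from the shared stretch cannot be told apart; the size of that stretch was not measured. The same holds for Jak1 with Raver2, Irf3 with Bcl2l12 and Irf7 with Phrf1, and for Irf9 with Rnf31 on the same strand. Stat2, the STAT of the type I complex, was at 5.50 and 3.22 TPM in HFD 1 and HFD 2, against 3.10 and 2.85 TPM in control 1 and control 2 (log2 0.40, SE 0.42), and these sets did not overlap.

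The IRFs are transcription factors that bind ISRE-like letters, and 5 of 6 were in at least 50% of cells. Irf1, an early target of interferon gamma and an activator of Ciita, averaged 97.9 and 98.1 TPM in HFD 1 and HFD 2, against 86.0 and 113 TPM in control 1 and control 2. The HFD sets lay between the control sets, and the log2 fold change was −0.01 (SE 0.25, limma adjusted p = 0.995). Irf8, known best from myeloid and B cells, averaged 53.0 and 49.4 TPM in HFD 1 and HFD 2, against 40.8 and 42.4 TPM in control 1 and control 2. It was in 89.0% and 79.3% of HFD cells and in 84.9% and 79.1% of control cells. That is 305 of the 367 cells in all, against at most 102 for any of the 14 leukocyte genes (Cd8a). Its sets did not overlap in level, with HFD above, and the log2 fold change was 0.29 (SE 0.25, limma adjusted p = 0.701). Irf3, which responds to nucleic acid sensors, also had both HFD sets above, at 45.4 and 42.8 TPM in HFD 1 and HFD 2, against 28.8 and 38.7 TPM in control 1 and control 2 (log2 0.39, SE 0.26, limma adjusted p = 0.596).

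Irf2, an antagonist of Irf1 on shared targets, split the HFD sets, at 39.4 and 13.7 TPM in HFD 1 and HFD 2, against 23.9 and 21.3 TPM in control 1 and control 2 (log2 0.05, SE 0.35). Irf9, the DNA-binding part of the type I complex, averaged 21.7 and 16.95 TPM in HFD 1 and HFD 2, against 20.4 and 21.3 TPM in control 1 and control 2 (log2 −0.11, SE 0.28). Irf7, the amplifier of type I interferon production, was at 6.06 and 2.30 TPM in HFD 1 and HFD 2 and at 6.84 and 2.73 TPM in control 1 and control 2. For these 3 genes the diets overlapped. The inhibitors were scarce: Socs3 was at 0.758 and 0.678 TPM in HFD 1 and HFD 2, against 1.91 and 1.16 TPM in control 1 and control 2 (log2 −0.54, SE 0.51), and Socs1 was in 9 cells in all. Socs3 averaged under 1 TPM in HFD and passed the filter on low genes through the control sets, so its place among the lower genes depends on that filter.

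**Figure D2:**
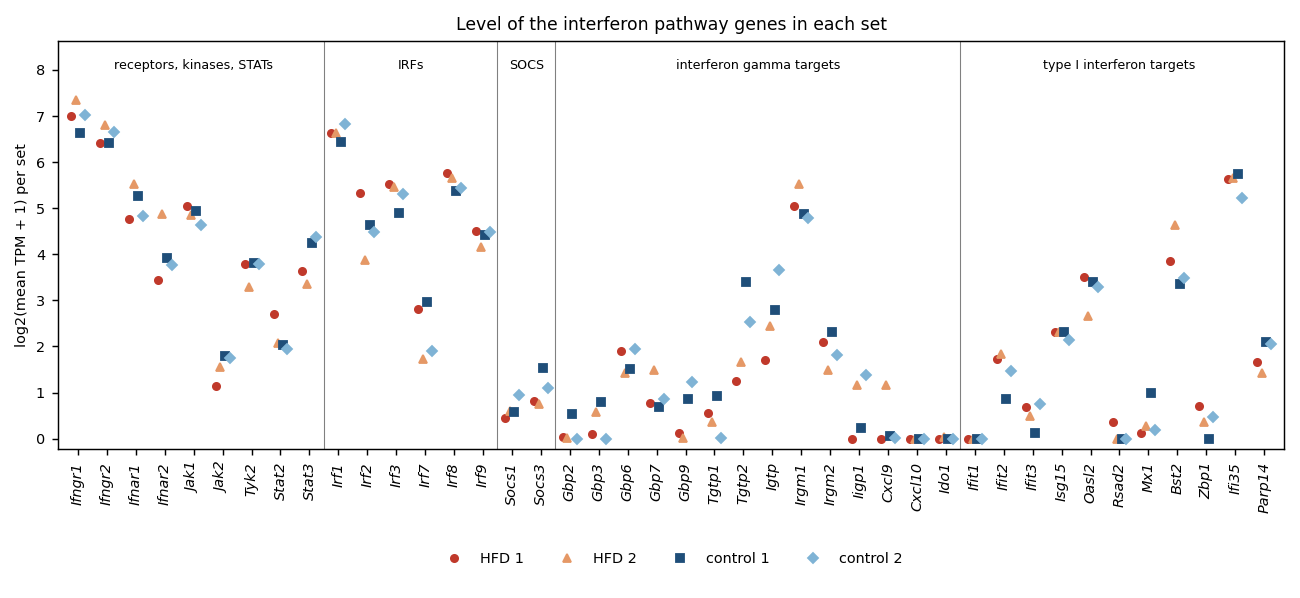
Level of each of the 42 genes as log2(mean TPM + 1), 1 point per set (HFD 1, HFD 2, control 1, control 2), grouped by role. Receptor chains and most IRFs hold the high levels in every set, and most targets lie under 3 on this scale. Among genes that passed the filter, both HFD points lie below both control points for Jak2, Tyk2, Stat3, Socs3, Tgtp2, Igtp and Parp14. They lie above for Stat2, Irf3, Irf8, Irgm1, Ifit2, Isg15 and Bst2.

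The targets of interferon gamma that differed most in value were a pair of immunity-related GTPases, which act on the vacuoles of intracellular pathogens. Tgtp2 averaged 1.38 and 2.16 TPM in HFD 1 and HFD 2, against 9.54 and 4.79 TPM in control 1 and control 2. It was in 1 of 91 cells (1.10%, 95% interval 0.0278 to 5.97%) and 5 of 92 cells (5.43%, 1.79 to 12.2%) of the HFD sets, against 19 of 93 cells (20.4%, 12.8 to 30.1%) and 10 of 91 cells (10.99%, 5.40 to 19.3%) of the control sets. Both HFD sets lay below both control sets, and a single cell carried the whole Tgtp2 level of HFD 1. The log2 fold change was −1.51 (SE 0.43, unadjusted limma p = 0.00191), and the adjusted p was 0.162.

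The call on Tgtp2 turned on single sets and cells. Without control 2 its log2 fold change was −1.94 and it was called (limma adjusted p = 0.0445), among 146 genes called in that fit (1.25%), whereas without control 1 it was −1.08 (adjusted p = 0.790). Without the highest cell of each set, a setting chosen after seeing the data, it was −2.05 (limma adjusted p = 0.0165), among 86 genes called (0.779%). That setting takes away the 1 Tgtp2 cell of HFD 1, which leaves that set at 0, so the larger difference follows in part from its construction. Over 15 alternatives the adjusted p ran between 0.0165 and 0.790, and the log2 fold change between −2.05 and −0.58, the smallest with the mean of log2 over cells. Tgtp1, its neighbour on chromosome 11, has a transcript 99.8% identical over 2810 aligned bases, so reads can be split between these genes. The sum of both was 1.86 and 2.44 TPM in HFD 1 and HFD 2, against 10.4 and 4.80 TPM in control 1 and control 2, in the same order as Tgtp2 alone.

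Igtp (Irgm3 by its other name) averaged 2.28 and 4.43 TPM in HFD 1 and HFD 2, against 5.93 and 11.6 TPM in control 1 and control 2. It was in 5 and 11 cells (5.49% and 12.0%) of the HFD sets, against 25 and 17 cells (26.9% and 18.7%) of the control sets. These did not overlap on either measure, and the log2 fold change was −1.15 (SE 0.41, unadjusted limma p = 0.0103, adjusted p = 0.293). It was −0.83 without the cells with Paneth markers and −0.72 without control 2. Irgm2 overlaps exons of Igtp on the same strand, and the sum of both was 5.57 and 6.24 TPM in HFD 1 and HFD 2, against 9.91 and 14.1 TPM in control 1 and control 2. Irgm2 alone was at 3.30 and 1.81 TPM in HFD 1 and HFD 2 and at 3.98 and 2.54 TPM in control 1 and control 2, which overlapped.

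Irgm1, a GTPase of the same family, lay the other way. It averaged 32.1 and 44.8 TPM in HFD 1 and HFD 2, against 28.3 and 26.4 TPM in control 1 and control 2, and was in 69.2% and 67.4% of HFD cells against 65.6% and 54.9% of control cells. Both HFD sets lay above, but the log2 fold change of 0.46 (SE 0.27) did not pass the test (limma adjusted p = 0.540), and it was 0.22 without HFD 2. Gbp6, a guanylate-binding protein, was at 2.76 and 1.67 TPM in HFD 1 and HFD 2 and at 1.86 and 2.84 TPM in control 1 and control 2. The other 9 gamma targets (Gbp2, Gbp3, Gbp7, Gbp9, Tgtp1, Iigp1, Cxcl9, Cxcl10 and Ido1) averaged under 1 TPM and did not pass the filter on low genes. They were in 0 to 19 of the 367 cells, and their level in a set was at most 1.81 TPM.

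Of the type I targets, Bst2, the membrane tether that holds back budding virus, differed most in value. It averaged 13.5 and 23.8 TPM in HFD 1 and HFD 2, against 9.17 and 10.2 TPM in control 1 and control 2, and was in 31.9% and 27.2% of HFD cells against 22.6% and 22.0% of control cells. Both HFD sets lay above both control sets. The log2 fold change was 0.83 (SE 0.32, unadjusted limma p = 0.0177, adjusted p = 0.351), and it was 0.44 without HFD 2. Ifi35, a small interferon-induced leucine zipper protein, averaged 48.9 and 49.3 TPM in HFD 1 and HFD 2, against 52.4 and 36.2 TPM in control 1 and control 2, with overlap (log2 0.17, SE 0.26).

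The remaining type I targets were low. Oasl2, of the 2′-5′-oligoadenylate synthetase family, was at 10.3 and 5.35 TPM in HFD 1 and HFD 2 and at 9.60 and 8.78 TPM in control 1 and control 2. Isg15, the ubiquitin-like modifier, was at 3.95 and 4.01 TPM in HFD 1 and HFD 2 and at 3.94 and 3.43 TPM in control 1 and control 2. The diets overlapped for Oasl2, and both HFD sets of Isg15 lay just above both control sets (log2 0.09), and its fold change turned negative without Rn45s (−0.10), with median-ratio scaling (−0.02) and without the cells with Paneth markers (−0.41). Ifit2, which binds RNA, was at 2.30 and 2.56 TPM in HFD 1 and HFD 2, against 0.819 and 1.78 TPM in control 1 and control 2 (log2 0.61, SE 0.48). Parp14, an ADP-ribosyltransferase, was at 2.19 and 1.70 TPM in HFD 1 and HFD 2, against 3.28 and 3.16 TPM in control 1 and control 2 (log2 −0.52, SE 0.44). Ifit2 and Parp14 each kept the diets apart, in opposite directions, and neither passed the test. Ifit1, Ifit3, Rsad2, Mx1 and Zbp1 did not pass the filter on low genes and were in 0 to 28 cells.

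Across the 27 genes that passed the filter, the fold change was positive for 14 (51.9%) and negative for 13, against 7293 positive (62.5%) and 4374 negative of all genes tested. Both HFD sets lay above both control sets for 7 of the 27 genes (25.9%), against 29.5% of all genes tested. Both lay below for another 7 (25.9%), against 12.3% of all genes tested. Socs3 is among those 7, and these counts cover the genes that passed the filter and not all 42.

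The median log2 fold change was 0.10 over the 9 receptor, kinase and STAT genes, 0.02 over the 6 IRFs, −0.27 over the 5 gamma targets and 0.13 over the 6 type I targets that passed, against 0.13 over all genes. Relative to the median of all genes, the receptor group lay at −0.03, the gamma targets at −0.40 and the type I targets at 0.0036. With Rn45s left out of the total, the median of all genes was −0.05 and the relative values were −0.06 for the receptor group, −0.31 for the gamma targets and −0.02 for the type I targets. Without HFD 2, the gamma target median was 0.03, relative to all genes −0.09. Without the cells with Paneth markers the gamma target median was −0.08, relative to all genes −0.21. In that setting the type I targets lay at −0.18 relative to all genes, close to the gamma targets, and the receptor group at 0.05. A median over 5 genes that passed the filter is a description of those genes and not of all 14 gamma targets.

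In the same fit the 6 MHC class II genes fell in HFD, with a median log2 fold change of −1.52, the smallest fall in H2-DMa (−1.31) and the largest in H2-Aa (−2.06). Of the 27 interferon pathway genes, Tgtp2 and Igtp were the 2 with a fold change below −1, and neither was called. Ciita stood at −0.99 (SE 0.36, limma adjusted p = 0.2996). All 6 class II genes were called in this fit. Without the filter on low genes 0 of 19092 genes were called, so the class II genes were not called there either.

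**Figure D3:**
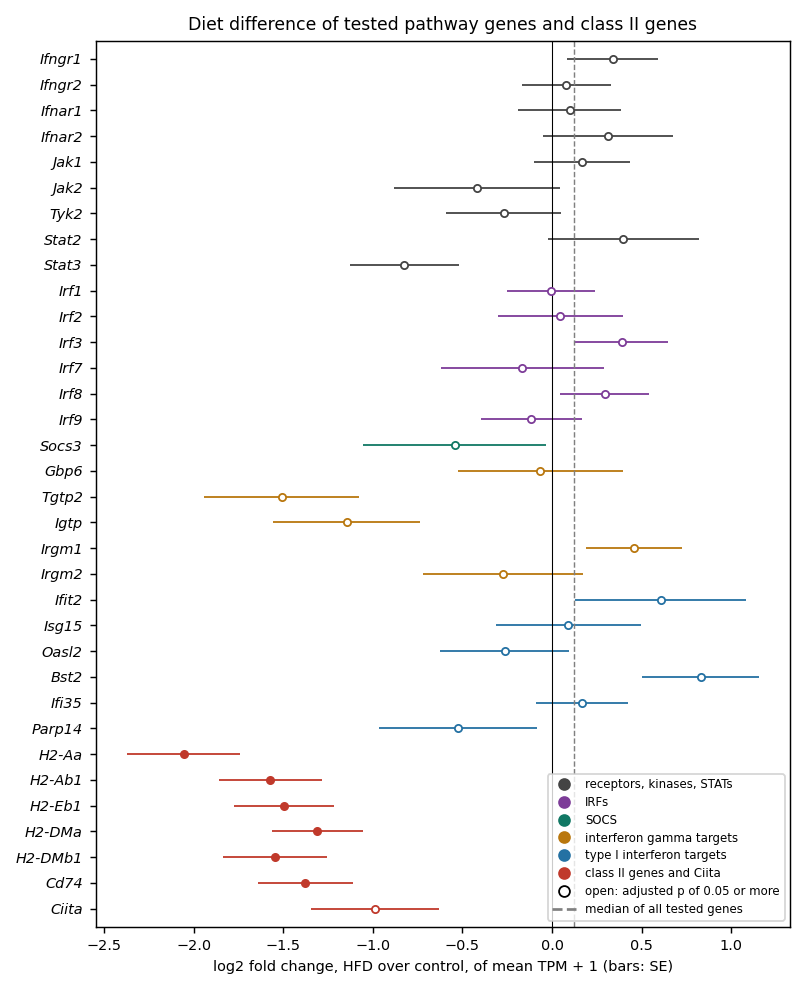
Log2 fold change of HFD over control for the 27 interferon pathway genes that passed the filter, the 6 class II genes and Ciita, with bars for SE (2 sets per diet), a dashed line at the median of all tested genes and filled points for adjusted p under 0.05. The filled points are the 6 class II genes, between −2.06 and −1.31, and every interferon pathway gene is open.

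Counted per cell, a cell of HFD 1 and HFD 2 held 10.1 and 8.91 of the 17 receptor and signal genes on average, and a cell of control 1 and control 2 held 10.2 and 9.38. The difference of −0.32 genes was within the spread between sets of the same diet of 0.73. Of the 14 gamma targets, a cell held 1.14 and 1.21 in HFD 1 and HFD 2, against 1.66 and 1.20 in control 1 and control 2, which differed by −0.25 genes (spread 0.23) and rested on control 1. Without control 1 the difference was −0.02. Cells with 3 or more gamma targets numbered 4 and 8 in HFD 1 and HFD 2, against 19 and 10 in control 1 and control 2, while cells with none numbered 19 and 19 in HFD 1 and HFD 2, against 16 and 21 in control 1 and control 2. Of the 11 type I targets, a cell held 1.93 and 1.66 in HFD 1 and HFD 2 and 1.99 and 1.67 in control 1 and control 2, which differed by −0.03 genes (spread 0.21). The 6 class II genes differed by −2.43 genes per cell (spread 0.38), at 1.73 and 2.09 in HFD 1 and HFD 2 and 4.67 and 4 in control 1 and control 2.

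**Figure D4:**
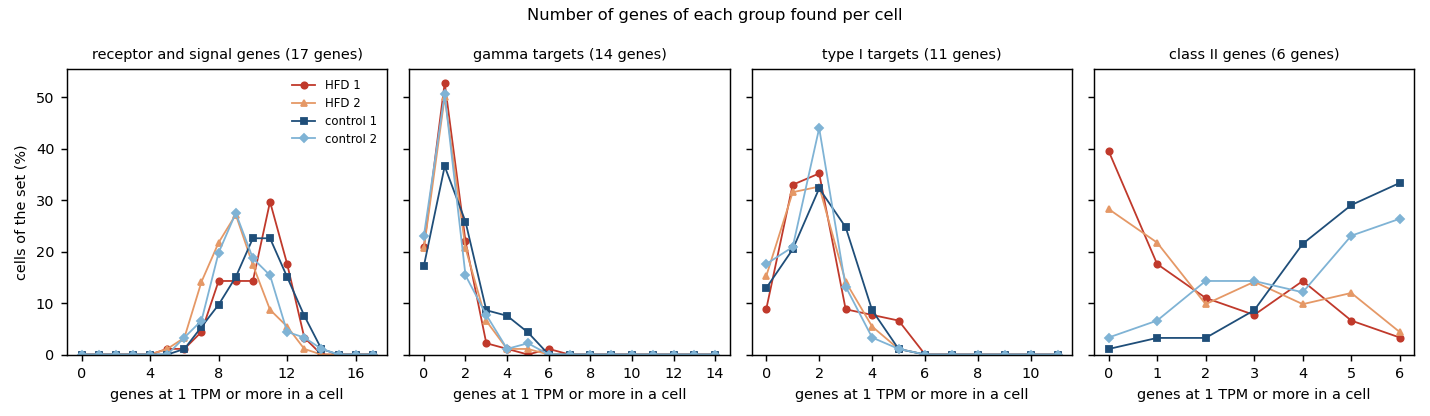
Share of cells (%) of each set (HFD 1, HFD 2, control 1, control 2) by the number of genes at 1 TPM or more in the cell, for the 17 receptor and signal genes, the 14 gamma targets, the 11 type I targets and the 6 class II genes. The curves of the diets overlap in the first 3 panels and separate in the class II panel, where HFD cells lie mostly at 0 to 2 genes and control cells mostly at 4 to 6.

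Within a set, scores of the 14 gamma targets and of the type I targets correlated weakly with class II transcripts. These correlations were close in size to those with some other measures of the cell. A wider list of gamma targets, described below, correlated more strongly. The Spearman correlation of the gamma target score (mean log2(TPM + 1) of the 14 genes) with the class II score was 0.06 and 0.15 over the cells of HFD 1 and HFD 2 and 0.25 and 0.22 over those of control 1 and control 2. The mean over sets was 0.17, and 0.19 after the number of genes per cell was taken out. The mean correlation of the gamma target score was 0.21 with the number of genes per cell, 0.16 with the leukocyte score and 0.14 with the S phase score. After the number of genes per cell was taken out, the mean was 0.13 with the leukocyte score and 0.03 with the S phase score. For the type I target score and class II the Spearman correlation, without that step, was 0.02 and 0.16 in HFD 1 and HFD 2. It was 0.11 and 0.17 in control 1 and control 2, with a mean of 0.11. For the wider list of gamma targets the correlation with class II was 0.15 and 0.35 in HFD 1 and HFD 2. It was 0.52 and 0.38 in control 1 and control 2, with a mean of 0.35. After the number of genes per cell was taken out, that mean was 0.38. A wider list of type I targets had a mean of 0.16 without that step. For Ciita alone the correlation with class II was 0.29 and 0.32 in HFD 1 and HFD 2 and 0.20 and 0.30 in control 1 and control 2. Cells of a set are not separate replicates of a diet, and most targets are at 0 in most cells. These values of 91 to 93 cells a set are therefore a description.

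**Figure D5:**
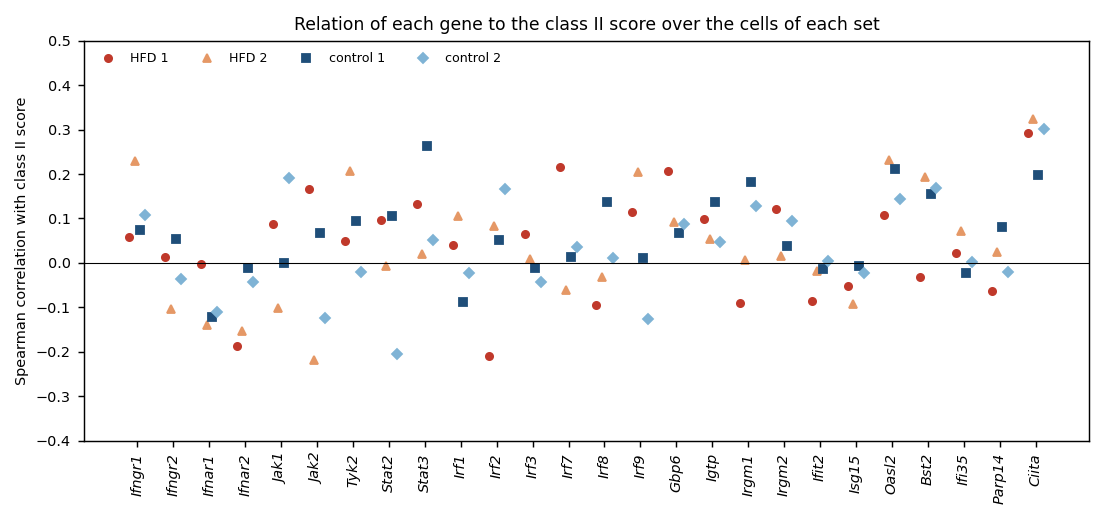
Spearman correlation with the class II score over the cells of each set (HFD 1, HFD 2, control 1, control 2) for the interferon pathway genes found in at least 5 cells of every set, with Ciita at the right. Most genes scatter around 0 with sets of both signs, and Ciita lies between 0.20 and 0.32. Oasl2, a type I target, lies between 0.11 and 0.23. Ifngr1, Stat3, Gbp6, Igtp and Irgm2 are also positive in every set, while Ifnar1, Ifnar2 and Isg15 are negative in every set.

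Tgtp2 and Igtp were found mostly in cells that held Cd74, the class II invariant chain. Of the cells with Igtp, 3 of 5 and 6 of 11 held Cd74 in HFD 1 and HFD 2, and 25 of 25 and 17 of 17 in control 1 and control 2. Cd74 was itself in 46 of 91 and 51 of 92 cells of the HFD sets and in 91 of 93 and 82 of 91 cells of the control sets, so these shares lie near those of all cells. Of the cells with Tgtp2, 1 of 1 and 4 of 5 held Cd74 in HFD 1 and HFD 2, and 18 of 19 and 10 of 10 in control 1 and control 2. Ciita was in 1 of 1 and 0 of 5 of the Tgtp2 cells in HFD 1 and HFD 2 and in 16 of 19 and 5 of 10 in control 1 and control 2, where 45 of 93 and 29 of 91 of all cells held it. Tgtp2 and Igtp shared 1 cell in HFD 1, none in HFD 2, and 8 and 4 cells in control 1 and control 2.

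Pairs were formed among the 25 interferon pathway genes found in at least 5 cells of every set, which leaves out Tgtp2. After the number of genes per cell was taken out, no such pair had a mean correlation over sets above 0.2. Of these 300 pairs, 42 had a positive correlation in all 4 sets and 19 a negative one. The share among pairs of other genes was not computed, so these counts are a description. The highest mean over sets was 0.19, for Ifngr2 with Stat3, followed by 0.18 for Irf1 with Irgm2. Ifngr2 with Stat3 was at 0.21 and 0.25 in HFD 1 and HFD 2 and at 0.24 and 0.05 in control 1 and control 2. These values are weak, and whether they reflect a relation was not tested.

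Beyond the 42 genes, lists of the wider pathway gave no call, where 0.506% of all genes tested were called. For lists of this size a count of 0 is near that background. Of all genes tested, 62.5% had a positive fold change. Of 19 ligand genes, none passed the filter and 10, among them Ifng, were listed at 0 in every cell. Of 29 further receptors and regulators, 26 passed the filter, 12 with a positive and 14 with a negative fold change, and the smallest p belonged to Ptpn6 (log2 0.66), Socs4 (−0.54), Ptpn1 (0.62) and Il22ra1 (−0.71). Of 28 further gamma targets, 17 passed the filter, 8 positive and 9 negative, led by Gvin1 (−0.68), Apol9b (1.31, in 4 cells), Psmb10 (0.48) and Lap3 (0.49). Of 46 further type I targets, 37 passed the filter, 20 positive and 17 negative, led by Znfx1 (−0.87), Trim25 (−0.58), Oasl1 (1.07, in 15 cells) and Lgals9 (0.48). The smallest limma adjusted p in these 3 lists were 0.458, 0.398 and 0.372.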

How the data were processed

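Single Lgr5-sorted cells were profiled by Smart-seq2, per the labels' protocols. The deposited values are TPM, 1 per gene and cell, which the authors made with Bowtie2 and RSEM on mm10, per the submitters' processing notes. The sources used here give no versions and no annotation. Cells were grouped by title into 2 sets per diet. TPM was averaged over the kept cells of a set, and limma 3.58.1 (R 4.3.3) with a mean-variance trend was run on log2(mean TPM + 1) for genes averaging at least 1 TPM. The test was two-sided and p-values were adjusted over all genes tested by the method of Benjamini and Hochberg (threshold 0.05). Folds are HFD over control and understate changes of low genes. Sets are not stated to be separate mice, so p-values measure only the spread between these sets, which may be technical. The fit was tested on simulated data. Spearman correlations were computed within sets. Positions come from GENCODE M21 (GRCm38). The rule for genes with all set values took those averaging at least 10 TPM, those with the 6 smallest p, and Irf1, Irf8 and the gamma receptor and kinase genes, 18 in all. The other 9 that passed the filter are also given by level, outside that rule; the wider lists give the 4 smallest p. The 42 genes, the lists and this rule were chosen with earlier results of these data known. Alternatives covered the pseudocount, filters, scaling, averaging, pairing, sets and cells.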

Additional observations from a re-analysis of the deposited data

How the results depend on the processing

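None of the 27 genes that passed the filter was called in the analysis as reported, and 385 of 420 values under 16 alternatives kept their sign and their side of the threshold. Tgtp2 was the 1 interferon pathway gene called with the set number as a replicate block (log2 −1.51, limma adjusted p = 0.0379), and 1 was called without each gene's highest cell, an alternative chosen after seeing the data. Leaving out 1 set gave 0 to 1 calls, with the lone set of its diet assumed to vary like the pair of the other. The labels do not say what the set numbers stand for, and with 2 pairs the check (deviations of same-numbered sets correlated at 0.23 over 11667 genes) does not settle whether they pair the sets; the block raised the calls over all genes to 635. Calls over all genes were 14 with all cells kept, 6 without a trend, 0 without the filter on low genes (limma; 1398 at an unadjusted p under 0.05), 6 without Rn45s, 37 without cells with Paneth markers and 69 to 146 with 1 set left out, against 59. The gamma target median was −0.71 with all cells, −0.065 without the filter, −0.079 without Paneth-marker cells and −0.31 to 0.032 with 1 set left out; the cause was not tested. Signs turned for 13 genes that were not called. With Rn45s left out these were Ifngr2 (−0.10), Ifnar1 (−0.11), Jak1 (−0.012), Irf2 (−0.13), Ifi35 (−0.023) and Isg15 (−0.10). With median-ratio scaling they were Ifngr2 (−0.057), Ifnar1 (−0.034), Irf2 (−0.083) and Isg15 (−0.018), and with the mean of log2 over cells Ifnar1 (−0.15), Irf2 (−0.12) and Gbp6 (0.055). Isg15 was at −0.41 without Paneth-marker cells. Irf1 turned to 0.011 in cells with at least 4000 genes and to 0.037 without its highest cell. Leaving out 1 set moved Ifngr2 between −0.11 and 0.27, Ifnar1 between −0.28 and 0.48, Ifnar2 between −0.41 and 1.038, Irf1 between −0.20 and 0.19, Irf2 between −0.68 and 0.78, Irf9 between −0.28 and 0.055, Irf7 between −0.71 and 0.38, Gbp6 between −0.31 and 0.18, Irgm2 between −0.58 and 0.032, Oasl2 between −0.68 and 0.15 and Ifi35 between −0.093 and 0.43. TPM keeps no depth, and 2 sets per diet limit the precision: an exact permutation of 4 sets cannot give a p below 0.333.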

Other observations

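Among the interferon gamma targets outside the 42 genes, Psmb8, Psmb9 and Tap1 followed class II transcripts most closely from cell to cell. They are immunoproteasome and peptide transporter genes and were picked after their values were seen. Other genes of these families did not share this. Psmb10 had a mean correlation of 0.13 and Tap2 of 0.10, each with sets of both signs. The mean Spearman correlation with the class II score over the 4 sets was 0.37 for Psmb8, 0.30 for Psmb9 and 0.28 for Tap1, against 0.28 for Ciita and 0.17 for Tgtp2. Psmb8, a catalytic subunit of the immunoproteasome, averaged 99.6 and 169 TPM in HFD 1 and HFD 2 and 146 and 145 TPM in control 1 and control 2, which overlapped (log2 −0.16, SE 0.27). These values describe 91 to 93 cells a set.

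Some type I targets outside the 42 genes were among the abundant transcripts of these cells. Ifitm3, an antiviral membrane protein, averaged 801 and 1124 TPM in HFD 1 and HFD 2, against 628 and 837 TPM in control 1 and control 2. Ifitm2 averaged 652 and 769 TPM in HFD 1 and HFD 2, against 504 and 623 TPM in control 1 and control 2. The diets overlapped for Ifitm3, and both HFD sets of Ifitm2 lay above both control sets (log2 0.34, SE 0.31, limma adjusted p = 0.729).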
